A study of Mus musculus with 5 samples.

Results

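The 8 genes described here make up the core loop of the circadian clock: the activator genes *Arntl* (BMAL1), *Clock* and *Npas2*, and the repressor genes *Per1*, *Per2*, *Per3*, *Cry1* and *Cry2*. They were taken by gene symbol from 19505 measured genes, and each has 1 probe set on the array. The set was chosen on earlier values of these same arrays, in which clock genes varied between mice, so the log2 signals that follow are a description and carry no test. The signals come from the left soleus of 5 sedentary HA-RiboTagMyo mice (Myogenin-Cre x RiboTag-Rpl22fl/fl-HA), numbered 1, 3, 11, 14 and 16, with 1 array per mouse. All 5 form a single untreated group, and no second condition was compared. Cre under the myogenin promoter puts the HA tag on RPL22 in myogenin-positive cells, so the measured RNA is what the anti-HA antibody pulled down with tagged ribosomes. No array of whole muscle or of untagged mice was used here. The Methods give sexually mature mice, male unless otherwise stated, kept under a light/dark cycle and harvested in the early afternoon after a short fast unless otherwise stated. The Cre line had been backcrossed to C57BL/6J, and the labels give neither strain, age, sex nor hour of harvest for a given mouse. Clock transcripts change with the hour, so differences between mice in hour of harvest and other differences between them cannot be told apart in the spreads that follow.

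In the core loop, BMAL1 pairs with CLOCK or with its paralog NPAS2, and the pair binds E-box elements and switches on the *Per* and *Cry* genes. PER and CRY proteins then return to the nucleus and repress the pair, which closes a cycle of about a day. In skeletal muscle this loop is known for its control of fuel use and of many metabolic genes. In most peripheral tissues *Arntl* peaks about opposite to *Per1*, *Per2* and the REV-ERB gene *Nr1d1*, while *Cry1* lags behind the *Per* genes. REV-ERB receptors repress *Arntl* through ROR elements, which RORs activate, and PAR bZIP factors act through D-boxes.

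Promoter segments of 4 members with exact matches to these elements are shown here, with *Ciart* added because it varied most between mice among the named clock genes. Sequences were taken from RefSeq on GRCm38.p6, where 7 of the 8 members had a window of 300 bases, and *Per2* is named only. Capitals mark the matches. Exact matches were searched on both strands, and no 2 different motifs overlapped in these windows: the E-box CACGTG, the D-box TTATGTAA and AGGTCA, the core of ROR elements that other nuclear receptors also bind. Of all windows of this length, 7.15% held the E-box, 0.938% the D-box and 16.3% the ROR core.
*Per1*, an E-box and, on the opposite strand, a ROR core (chr11:69098699-69098848, plus strand): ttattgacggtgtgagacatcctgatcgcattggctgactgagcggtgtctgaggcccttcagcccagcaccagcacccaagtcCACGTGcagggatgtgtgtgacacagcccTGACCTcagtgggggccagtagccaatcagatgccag
*Cry1*, an E-box (chr10:85185055-85185204, minus strand): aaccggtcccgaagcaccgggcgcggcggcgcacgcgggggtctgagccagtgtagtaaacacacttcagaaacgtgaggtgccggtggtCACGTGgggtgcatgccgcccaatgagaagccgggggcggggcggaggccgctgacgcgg
*Per3*, a pair of D-boxes (chr4:151044766-151044915, minus strand): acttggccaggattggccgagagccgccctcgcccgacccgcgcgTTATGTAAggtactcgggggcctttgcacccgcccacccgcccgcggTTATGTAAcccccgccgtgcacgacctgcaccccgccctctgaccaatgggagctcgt
*Arntl*, a ROR core just after its second annotated start (chr7:113207530-113207559, plus strand): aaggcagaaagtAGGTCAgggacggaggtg
*Ciart*, 3 E-boxes (chr3:95882229-95882378, minus strand): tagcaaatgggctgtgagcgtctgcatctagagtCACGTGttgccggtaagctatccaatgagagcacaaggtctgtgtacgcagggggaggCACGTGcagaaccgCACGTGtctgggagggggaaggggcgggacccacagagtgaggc
*Per1* held its E-box 166 bases before its first annotated start and *Cry1* its E-box 60 bases before. *Per3* held D-boxes at 205 and 158 bases before its start and no E-box. The windows of *Npas2* and *Cry2* held none of these letters, and of the starts of *Clock* the third held a ROR core alone. Of the other named clock genes searched, *Tef* and *Bhlhe41* held E-boxes and *Nr1d2* and *Nfil3* ROR cores. *Nr1d1*, *Dbp* and *Hlf* held none of these letters, and *Bhlhe40* had no window. A match says only that the letters are present, and their absence from a window says nothing about binding elsewhere.

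**Figure D1:**
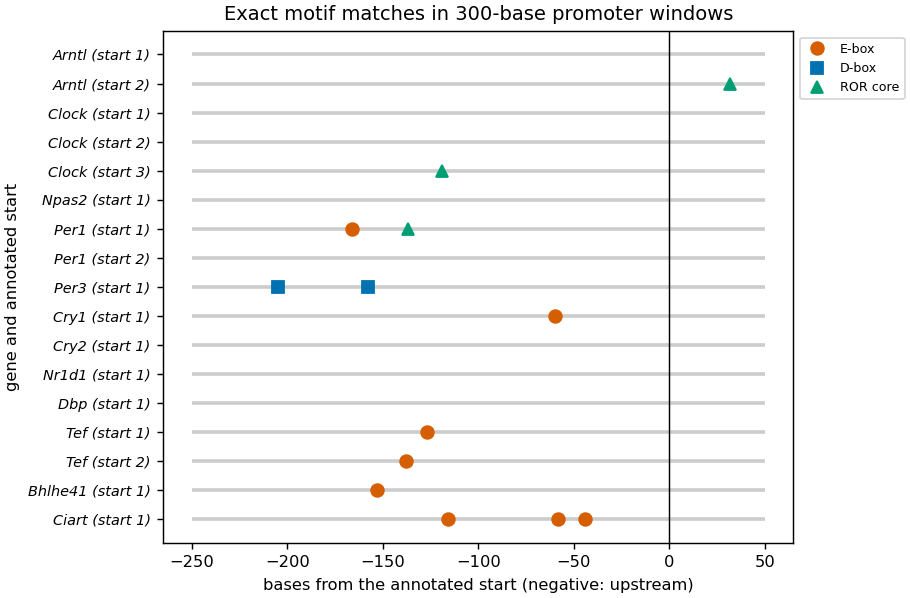
Exact motif matches (symbols) along 300-base windows (grey lines), 1 line for each annotated start; the x axis is bases from the start, negative upstream. *Per1* and *Cry1* carry 1 E-box each, *Per3* has D-boxes at -205 and -158, and *Ciart* has 3 E-boxes.

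The deposited values are log2 signals made by the authors, and arrays carry no read depth, so their number limits the precision. The median signal of an array was 5.11 to 5.20. A cutoff for background was set on each array at the 95th percentile of 1091 odorant receptor genes, most with no known transcript in muscle, and ran from 5.25 to 5.32. Calls above background needed a mean over that cutoff and an adjusted p under 0.05 in a limma fit (Benjamini-Hochberg over all genes). This rule passed 0.825% of the odorant receptor genes themselves. That share is low by design, since the same genes set the cutoff, and it is no error rate. All 8 myofiber markers were called, among them *Ckm* at 16.84 ± 0.30 (SD, n = 5), which whole soleus would show too, while 10 of 18 measured markers of other cell types were called too, all 4 endothelial and all 3 fibroblast genes included, and 0 of 3 satellite cell genes (*Pax7*, *Myf5* and *Calcr*). The Y-linked gene *Eif2s3y* was below the cutoff in mice 1 and 16 (3.54 and 3.53) and at 10.42, 11.92 and 12.73 in mice 3, 11 and 14, which goes against male mice throughout, so values over mice 3, 11 and 14 are given too, a choice made after the values were seen.

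All members but *Npas2* were read above background in the pulldown. By the limma rule, 7 of the 8 members were called, and the same rule called 43.5% of all genes, from which nothing is read here since these signals chose the members. *Arntl* lay above the cutoff in 4 of 5 mice and the other 6 called members in all 5, against 42.5% of all genes above it in every mouse. Under the main settings no member was called below the cutoff, where 45.4% of all genes were. *Npas2* was called below it under some of the alternatives given at the end. The same 7 were called above it over mice 3, 11 and 14. Signals of different probe sets differ by probe affinity, so the members are compared between mice and not with each other. The spread between mice, in contrast, differed widely between members, from an SD of 0.24 for *Cry2* to 1.28 for *Arntl*. The median SD over the 8482 genes above background was 0.36.

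**Figure D2:**
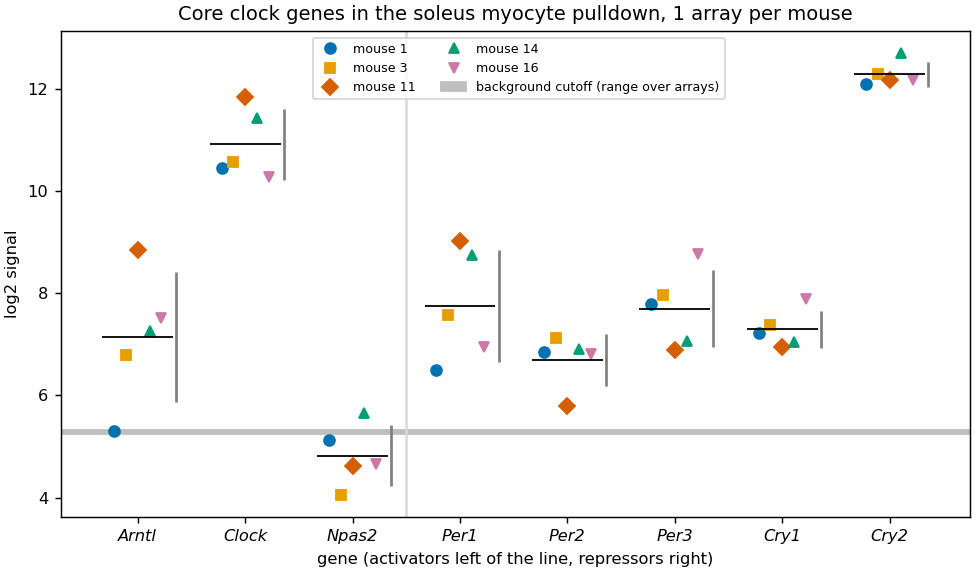
Log2 signal (y axis) of each core clock gene (x axis) in each of 5 mice (symbols), with the mean (black line), 1 SD either side (grey bar) and the range of the background cutoff over arrays (grey band). *Arntl* in mouse 1 and all mice but mouse 14 for *Npas2* lie at or below the band.

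Among the activators, *Arntl* varied most. Its log2 signal was 5.31, 6.79, 8.84, 7.25 and 7.51 in mice 1, 3, 11, 14 and 16, with a mean of 7.14 ± 1.28 (SD, n = 5). Mouse 1 sat at background while mouse 11 stood 3.53 log2 units higher, an 11.5-fold difference in signal that has a background reading as its lower end. This SD exceeded that of 99.4% of genes above background. *Clock*, whose product is the partner of BMAL1, read 10.44, 10.57, 11.84, 11.43 and 10.27 in mice 1, 3, 11, 14 and 16, with a mean of 10.91 ± 0.69 (SD, n = 5). Mice 11 and 14 were high and the other 3 lay close together below them. Its lowest and highest mouse differed 2.98-fold, and its SD exceeded that of 91.7% of genes above background. *Npas2*, which can stand in for *Clock*, read 5.13, 4.06, 4.62, 5.65 and 4.67 in mice 1, 3, 11, 14 and 16, and only mouse 14 was above the cutoff. Its mean lay 0.45 below the cutoff, and its differences between mice are differences among signals at background.

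*Per1*, a repressor that hormones and activity also induce, varied next most after *Arntl*. It read 6.50, 7.57, 9.01, 8.75 and 6.95 in mice 1, 3, 11, 14 and 16, with a mean of 7.76 ± 1.10 (SD, n = 5). Mice 11 and 14 were again the high ones and mouse 1 the lowest, with 5.71-fold between the ends, and the SD exceeded that of 98.8% of genes above background. *Per2*, a repressor often used as a readout of the clock, had signals of 6.85, 7.11, 5.80, 6.91 and 6.80 in mice 1, 3, 11, 14 and 16. It was nearly level in 4 mice, and mouse 11 alone read lower, still above its cutoff. The mean was 6.69 ± 0.52 (SD, n = 5), and without mouse 11 the SD was 0.14. *Per3*, which is less needed for rhythms than its paralogs, read 7.78, 7.96, 6.88, 7.07 and 8.76 in mice 1, 3, 11, 14 and 16, with a mean of 7.69 ± 0.75 (SD, n = 5). Its low mice, 11 and 14, were the high mice of *Per1*, and its highest, mouse 16, was low for *Per1*. The 3 *Per* genes thus differed in which mice were high, and the log2 difference between *Per1* and *Per3* moved by 3.94 over the mice.

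The cryptochromes, which carry most of the repression of the activator pair, varied less. *Cry1* read 7.21, 7.37, 6.94, 7.04 and 7.88 in mice 1, 3, 11, 14 and 16, with a mean of 7.29 ± 0.37 (SD, n = 5). Its high and low mice were those of *Per3*, and its SD, which fell to 0.19 without mouse 16, was near the median of genes above background. *Cry2* read 12.10, 12.29, 12.17, 12.69 and 12.16 in mice 1, 3, 11, 14 and 16, with a mean of 12.28 ± 0.24 (SD, n = 5). Only mouse 14 stood a little higher, and without it the SD was 0.083. The lowest and highest mouse differed 1.51-fold for *Cry2* and 1.92-fold for *Cry1*. Of the 7 members above background, 5 had a range over mice of at least 1 log2 unit, against 41.1% of all genes above background. A range of at least 2 log2 units was seen in 2, *Arntl* and *Per1*, against 4.72% of all. Nothing is read from these shares, or from the SD percentiles above, since earlier values of these arrays chose the members.

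**Figure D3:**
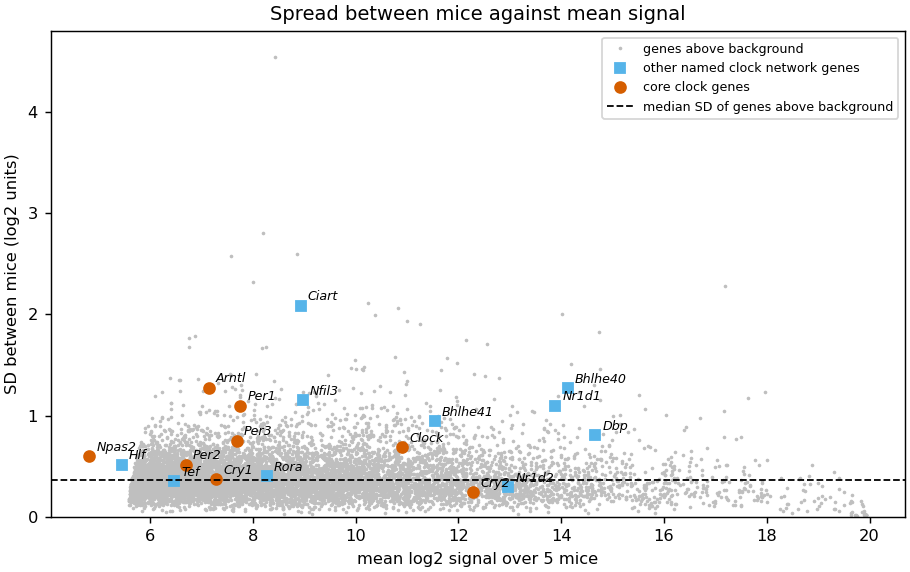
SD between 5 mice in log2 units (y axis) against mean log2 signal (x axis) for genes above background (grey dots), the core clock genes (orange) and the other named clock network genes (blue squares); the dashed line is the median SD of 0.36. *Arntl* (1.28) and *Per1* (1.10) lie far above the line, *Cry1* (0.37) close to it and *Cry2* (0.24) below it.

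Patterns over the mice cut across activators and repressors. Each gene was centred on its own mean, and pairs were compared by the root mean square difference over the 5 mice, in log2 units. This distance is not scaled for spread, so a gene that varies little, such as *Cry1* with an SD of 0.37, lies near others more readily. Among all pairs of members, *Per3* and *Cry1* were closest, at 0.36, followed by *Per2* and *Cry1* at 0.43. A rank by this distance is thus no rank of likeness in pattern. *Clock* and *Per1*, an activator and a repressor, were 0.45 apart. *Clock* lay 0.27 from the mirror image of *Per3*, the smallest such distance of any pair. *Clock* and *Per1* had mice 11 and 14 highest, a placing seen in 16.8% of all genes above background, and *Per3* and *Cry1* had the same mice lowest, seen in 12.3%. *Arntl* was at its highest and *Per2* at its lowest in mouse 11, while in mouse 1 *Arntl* was at its lowest and *Per2* only 0.15 above its mean. Averaged over members, the centred activators ran from -0.67 in mouse 1 to 0.81 in mouse 11 and the centred repressors from -0.26 in mouse 1 to 0.17 in mouse 16. The activator mean minus the repressor mean was -0.41, -0.60, 0.99, 0.34 and -0.31 in mice 1, 3, 11, 14 and 16. This activator mean includes *Npas2*, whose signals lay at background. With *Arntl* and *Clock* alone, a choice made after the values were seen, the difference was -0.89, -0.46, 0.17 and -0.31 in mice 1, 3, 14 and 16 and highest in mouse 11, which lay 2.39 above mouse 1. Mice 11 and 14 had positive differences in both forms and the other 3 negative ones, mouse 14 by little. The range of 1.60 with *Npas2*, the same over mice 3, 11 and 14, was 0.94 without mouse 11.

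**Figure D4:**
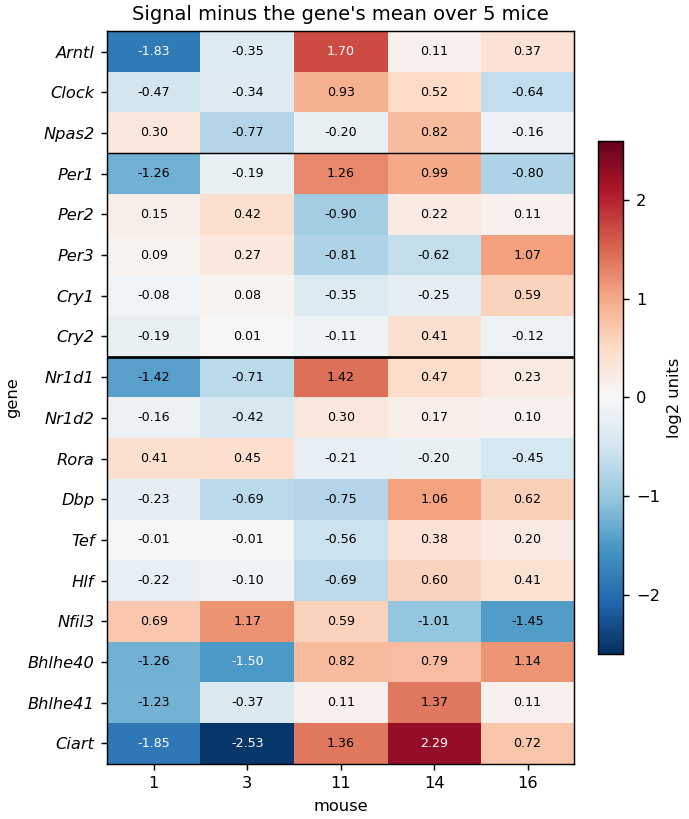
Log2 signal minus the gene's mean over 5 mice (colour and printed number) for the core clock genes (activators above the thin line, repressors below it) and 10 other clock network genes (under the thick line), by mouse (columns). *Arntl*, *Clock* and *Per1* are highest in mouse 11, where *Per2*, *Per3* and *Cry1* are lowest.

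Mouse 11 was the highest or the lowest mouse for 6 of the 7 members above background, against 37.5% of all genes above background. It was so for only 4 of the 18 other clock network genes above background, which are described below. Mouse 11 was singled out after the values were seen. A gap from the outermost mouse to the nearest of over 0.71 of the range was seen for *Per2* alone among the members, against 5.6% of all genes above background. Mouse 11 read highest for *Arntl*, *Clock* and *Per1* and lowest for *Per2*, *Per3* and *Cry1*. Beside this, markers of fibroblasts had their lowest mean signal in mouse 11, at 6.61 over the 3 genes against 7.37 to 8.19 in the other mice. *Col3a1* and *Dcn* were lowest in mouse 11, while *Col1a1* was lowest in mouse 14, at 5.36 against 5.50 in mouse 11. Of the endothelial markers only *Cdh5* was lowest in mouse 11, and their mean there, 6.21, was close to the 6.24 of mouse 16. *Mbp* (Schwann cells) and *Ptprc* were highest in mouse 11. Over all 18 measured markers of other cells the mean was lowest in mouse 11, at 5.76, and up to 6.10 elsewhere. Of the satellite cell markers *Pax7* and *Calcr* were below the cutoff in every mouse and *Myf5* above it in 3. Of the immune markers *Ptprc* and *Adgre1* were below it in every mouse and *Mrc1* above it in all 5. The part of these markers in the clock signals was not tested, and in such a pulldown fewer cells of a type and less RNA per cell cannot be told apart. *Clock*, *Per1* and *Cry2* had their lowest signals in mice 1 and 16, the mice with *Eif2s3y* at background, a placing seen in 13.4% of all genes above background. For *Cry2*, mouse 16 at 12.16 was nearly level with mouse 11 at 12.17. Whether sex has a part in this placing was not tested. Over mice 3, 11 and 14 alone, the SD was 1.07 for *Arntl*, 0.65 for *Clock*, 0.77 for *Per1*, 0.71 for *Per2*, 0.57 for *Per3*, 0.22 for *Cry1* and 0.27 for *Cry2*.

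Of 26 other genes of the clock network, a list chosen by role with results of these data known, 23 were analysed here, of which 18 were called above background and 3 below the cutoff, against 43.5% and 45.4% of all genes. All 5 measured kinases were called, which include the casein kinases that phosphorylate PER proteins, with *Csnk1d* at 11.28 ± 0.75 and *Csnk1e* at 9.65 ± 0.46 (SD, n = 5 each). The ubiquitin ligase genes *Btrc* and *Fbxw11*, whose products mark PER for breakdown, and the deubiquitinase gene *Usp2* were called, while *Fbxl21*, a CRY ligase gene, read below the cutoff in every mouse. So did *Rorb*, known from the nervous system, and *Timeless*. *Arntl2*, the paralog of *Arntl*, was at 5.23 ± 0.30 (SD, n = 5), with no call either way. A range of at least 1 log2 unit was seen in 11 of the 18 called and of at least 2 in 6, against the same 41.1% and 4.72% of all genes above background.

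The nuclear receptor genes that act on *Arntl* were read above background, and *Nr1d1*, which encodes REV-ERB alpha, varied most among them. It read 12.46, 13.18, 15.31, 14.35 and 14.12 in mice 1, 3, 11, 14 and 16, which put it 8.61 above the cutoff (adjusted p = 1.5e-10 from limma). Mice 1 and 3 were the low ones and mouse 11 the highest, as for *Arntl*, the gene that REV-ERB alpha represses. Its paralog *Nr1d2* was at 12.97 ± 0.29 and the activator gene *Rora* at 8.27 ± 0.40 (SD, n = 5 each). *Rora* had its higher signals in mice 1 and 3, at 8.68 and 8.72, against 7.82 to 8.07 in the others, the reverse of *Nr1d1*. These *Rora* values are means over 3 probe sets that differ in level. The mean lay 2.99 above the cutoff and the highest probe set 5.55. Whether each probe set has this pattern over the mice was not examined. Of the 8482 genes above background, *Arntl* itself aside, *Nr1d1* had the pattern over the 5 mice nearest to that of *Arntl*, at a root mean square difference of 0.32 log2 units, followed by *Alox12* at 0.37 and *Plekhf1* at 0.50. The distance is not scaled for spread, so a gene that varies little cannot lie near *Arntl*. Only 105 of the 8482 genes had an SD at least that of *Nr1d1*, *Nr1d1* included. In mouse 1 the signal of *Arntl* was a background reading. The nearest to the mirror image of *Arntl* were *Dynll2* at 0.48, *Clp1* at 0.51 and *Wfdc11* at 0.59.

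The E-box repressors read low in the same pair of mice. *Ciart*, which encodes the repressor CHRONO, had the widest range of the network. It read 7.08, 6.40, 10.30, 11.22 and 9.65 in mice 1, 3, 11, 14 and 16, 28.2-fold from end to end, and only 8 of the 8482 genes above background had an SD at least as large, *Ciart* included. *Bhlhe40* (DEC1) read 12.87, 12.63, 14.95, 14.92 and 15.27 in the same order of mice, a 6.24-fold range. *Bhlhe41* (DEC2) read 10.31 in mouse 1 and 11.17 in mouse 3 and between 11.65 and 12.91 in the others. In all, *Arntl* and 7 of the 18 other clock network genes above background had mice 1 and 3 lowest, against 15.0% of all genes above background. These 7 were *Nr1d1*, *Nr1d2*, *Bhlhe40*, *Bhlhe41*, *Ciart*, *Csnk1a1* and *Nono*, a pattern singled out after the values were seen.

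The PAR bZIP factors, which activate through D-boxes such as the pair printed for *Per3*, and *Nfil3*, which represses through them, had opposite high and low mice. *Dbp* read 14.44, 13.97, 13.92, 15.72 and 15.29 in mice 1, 3, 11, 14 and 16. *Nfil3* read 9.67, 10.14, 9.57, 7.97 and 7.53 in the same order. Mice 14 and 16 were thus the high pair for *Dbp* and the low pair for *Nfil3*, with no overlap with the other 3 mice in either. *Tef* also had its higher signals in mice 14 and 16, at 6.85 and 6.68 against 5.92 to 6.47, as did *Hlf*, at 6.05 and 5.86 against 4.77 to 5.35. *Hlf* was not called above background (distance 0.18, adjusted p = 0.392 from limma), and the placing of mice 14 and 16 highest was seen in 11.3% of genes above background and lowest in 10.6%. *Per3* did not share it, since mouse 16 was its highest and mouse 14 among its lowest. The nearest to *Per3* among genes above background were *Coa7* at 0.11, *Gsta4* at 0.12 and *Mir1a-1hg* at 0.18, and the nearest to its mirror image *Rab11b* at 0.13, *Tuba1c* at 0.17 and *Ube2e1* at 0.19.

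*Per1* is induced by several routes outside the loop, through glucocorticoids and through CREB, so genes of those routes were read beside it. The nearest patterns to *Per1* were those of *Fgf1* at 0.20, *Dusp1* at 0.22 and *Bag3* at 0.30, and the nearest to its mirror image those of *Jarid2* at 0.32, *Ddrgk1* at 0.38 and *Son* at 0.39. *Dusp1*, an immediate early phosphatase gene from the list read beside *Per1*, had signals of 12.45, 13.53, 14.59, 14.73 and 13.22 in mice 1, 3, 11, 14 and 16. *Nr4a1*, an immediate early nuclear receptor gene, read 10.73, 10.93, 13.37, 12.96 and 11.77 in the same order. Both were high in mice 11 and 14, like *Per1*. The rest of the list did not share both high mice. *Fos* was high in mouse 11 alone, at 8.02 against 6.21 to 6.68. *Junb*, *Sik1* and *Egr1* were highest in mouse 11 as well, but in mouse 14 *Junb* had its lowest signal (7.25), *Sik1* its second lowest (9.39) and *Egr1* its median (6.15). *Fosb* was below the cutoff in every mouse. Of the glucocorticoid-responsive genes, *Fkbp5*, *Cdkn1a*, *Klf9*, *Mt1* and *Mt2* were highest in mouse 11, as *Per1* was, but not high in mouse 14. *Fkbp5* read 12.86, 12.91, 13.85, 10.20 and 11.65 in mice 1, 3, 11, 14 and 16. *Cdkn1a* read 13.68 in mouse 11 and 7.86 in mouse 14, with the other 3 mice between 9.85 and 9.97. *Tsc22d3* was higher in mouse 14 (11.53) than in mouse 11 (10.48), and *Sgk1* was highest in mouse 3. All 7 glucocorticoid-responsive genes and 6 of 7 measured immediate early genes were called above background by limma, and the part of either route in the signal of *Per1* was not tested.

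**Figure D5:**
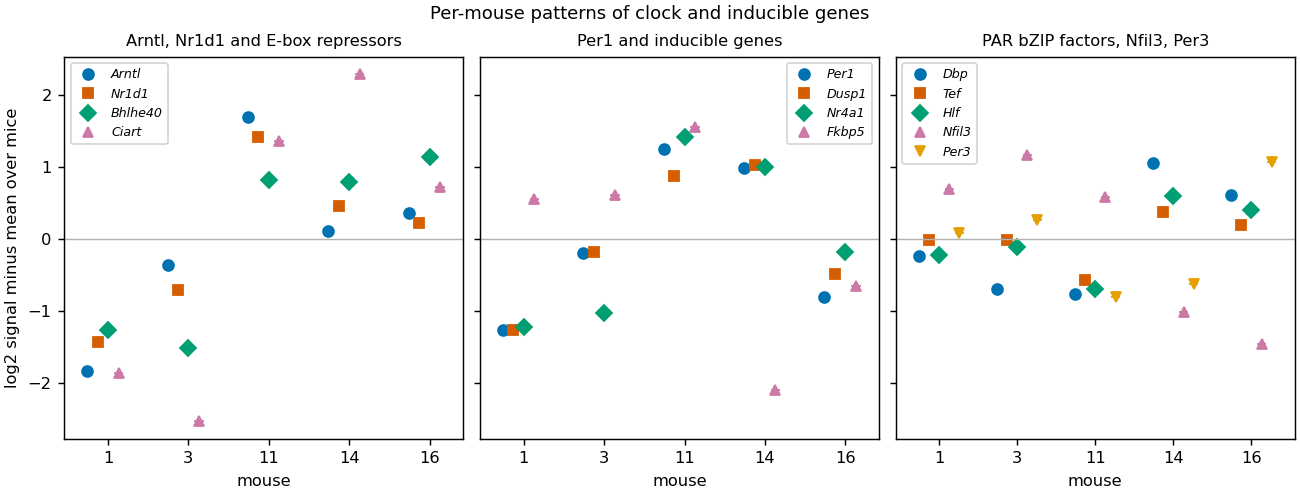
Log2 signal minus the gene's mean over 5 mice (y axis) by mouse (x axis), for *Arntl* with *Nr1d1* and E-box repressors (left), *Per1* with inducible genes (middle) and the PAR bZIP factors with *Nfil3* and *Per3* (right). Mice 1 and 3 are low for every gene on the left, mice 11 and 14 high for *Per1*, *Dusp1* and *Nr4a1*, and mice 14 and 16 high for *Dbp*, *Tef* and *Hlf* and low for *Nfil3*.

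For the other members the nearest patterns were as follows. *Clock* lay nearest to *Uqcrc2* at 0.083, *Plbd1* at 0.089 and *Mterf3* at 0.10, and its mirror image nearest to *Gkap1* at 0.086, *Romo1* at 0.10 and *Wwc2* at 0.11. *Per2*, with mouse 11 apart, lay nearest to *Snupn* at 0.089, *Rad50* at 0.094 and *Ebag9* at 0.11, and its mirror image nearest to *Chrnb1* at 0.079, *Mfsd14a* at 0.093 and *Usb1* at 0.097. A small distance is easier to reach for a gene with a small spread, and with 5 mice and 8482 genes close matches arise readily. *Cry1* and *Cry2* varied too little for this comparison, which took members with an SD above the 75th percentile of genes above background (0.50).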

How the data were processed

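RNA from anti-HA pulldowns of the left soleus of 5 mice was hybridized to Clariom S mouse arrays from Affymetrix (1 per mouse). The deposited values are log2 signals that the authors made with Transcriptome Analysis Console 4.0 in its default configuration. The sources used here name neither the summarization algorithm nor a genome build, and such processing may level arrays, so a shift shared by all genes of an array would not be seen. Of 22206 probe sets, the annotation paired 19572 with 1 gene symbol, 0 with several and 2634 with none. Probe sets of the same gene were averaged (55 genes), which left 19505 genes.

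Signals were set against a cutoff per array, the 95th percentile over 1091 odorant receptor genes, and their distance from it was fitted by limma 3.58.1 under R 4.3.3 (one-sample, two-sided, eBayes, Benjamini-Hochberg over all genes, threshold 0.05). The fit was tested on simulated data. P-values are for the mean distance from the cutoff, set against the spread between 5 mice of 1 group. They test no difference between mice. The members and lists were chosen with earlier results of these data known, so members carry no p-value. The arrays were not normalized again. Named genes were all members, 10 fixed genes of the wider network whatever their values, genes of 2 inducing routes, and for each member with an SD above the 75th percentile the 3 nearest and 3 nearest mirror patterns, left out for *Npas2*, which was read at background. Genes named beyond that rule were chosen after their values were seen. The alternatives were other percentiles (50, 90 and 99), 2 other background sets, another prior, quantile normalization, median centring, a single probe set per gene, a minimum mean signal, a rule with no model, each mouse left out and, added after seeing the data, mice 3, 11 and 14 alone and the activators without *Npas2*. Tables were made with Python 3.11.15 and pandas 2.3.3. Promoter windows were matched by symbol.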

Additional observations from a re-analysis of the deposited data

Results flagged for a closer look

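A mouse stood apart from the other 4, its gap to the nearest being over 0.71 of the range, in 3 of 45 clock network and inducible genes examined. Chance gives about 1 in 20, and 5.6% of all genes above background had such a mouse. *Per2* read 5.80 in mouse 11 against 6.80 to 7.11 in the others (ratio 0.765). *Fos* read 8.02 in mouse 11 against 6.21 to 6.68 in the others (ratio 0.742). *Timeless*, below the cutoff in every mouse, read 4.62 in mouse 3 against 3.27 to 3.62 in the others (ratio 0.742).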

How the results depend on the processing

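Of 471 values recomputed under the alternatives, 454 kept their direction and their side of the threshold, or stayed within the bounds set for counts and spreads. At the 50th percentile of odorant receptor genes the number of genes above background rose from 8482 to 12814, and *Npas2* lay 0.79 above the cutoff instead of below it. In contrast, *Npas2* was called below the cutoff at the 99th percentile (-0.99), with the other prior (-0.45) and without mouse 14 (-0.66). The same held with vomeronasal receptor genes (-0.69) and with beta-defensin and keratin-associated protein genes (-1.01) as background. *Hlf* lay -0.36 from the cutoff at the 99th percentile, -0.056 with vomeronasal receptor genes and -0.38 with beta-defensin and keratin-associated protein genes as background, and was called at the 50th and 90th percentiles (adjusted p = 2.21e-05 and 0.0396 from limma). The number of members called above background was 6 under the rule of every mouse above the cutoff, which lost *Arntl*. It was 8 at the 50th percentile and 7 under every other alternative in which calls were made again. At the 50th percentile 270 odorant receptor genes were called too. Leaving out each mouse in turn, the SD ranged from 0.14 (without mouse 11) to 0.59 for *Per2*, from 0.083 (without mouse 14) to 0.28 for *Cry2*, and from 0.19 (without mouse 16) to 0.42 for *Cry1*, and the activator minus repressor range from 0.94 (without mouse 11) to 1.60, and it was 2.39 with *Npas2* left out of the activators. Over mice 3, 11 and 14, the SD of *Cry1* was 0.22. No paired analysis was possible because the samples form 1 group. With 5 arrays and a background read from other probe sets, signals near the cutoff cannot be told from background.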
